A study of Mus musculus with 6 samples.

Results

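The 9 genes described here make, break down and bind retinoic acid, and were taken by symbol from the 33036 features of a table of messenger and long noncoding RNA levels in whole mouse ovary. They are Rdh10, Aldh1a1, Aldh1a2 and Aldh1a3 (synthesis), Dhrs3 (the reverse step), Cyp26a1 and Cyp26b1 (breakdown) and Crabp1 and Crabp2 (binding). All 9 had a value in every library. The study asked how low pressure and low oxygen change the ovary, with 3 libraries from C57BL/6J females held in a hypobaric chamber and 3 from females kept at the pressure of Lanzhou. The chamber mice were held at a simulated 6500 m (43.12 kPa, with 8.1 kPa oxygen), although the sample descriptions give 5000 m. The control altitude is 1500 m by title and 1588 m by the series text, with a pressure of 83.56 kPa and oxygen at 17.8 kPa. Both groups are described as synchronised by gavage of levonorgestrel and ethinylestradiol, with doses (0.1 and 0.02 mg/kg) given for the chamber mice only. Exposure was 15 days in the series text and 15, 16 and 17 days in the descriptions of replicates 1, 2 and 3. The mice were 8 weeks old by the series text, or 6 to 8 weeks by sample, and each group held 15. The dark period is labelled 12, 13 and 14 hours for control replicates 1, 2 and 3, and 12 hours for the chamber mice. How many mice gave each library is not stated. A p-value here reflects library-to-library spread, partly pooled over features and possibly technical in origin.

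Retinoic acid is a hormone-like acid made from vitamin A inside tissues. Retinol is oxidised to retinal, a reversible step, and retinal is then oxidised irreversibly to retinoic acid, which binds nuclear receptors and so controls genes. Cytochrome enzymes of the CYP26 family hydroxylate it for removal. In the fetal mouse gonad the balance of supply and removal has been linked to when germ cells enter meiosis, although its need there is debated.

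Levels are in TPM, a length-corrected transcript abundance scaled to one total per library, so levels of different genes can be set side by side. Read depth is not recoverable from TPM. Features above 0 numbered 27809 to 28283 in the hypoxia libraries and 29285 to 29402 in the normal-pressure libraries, with no overlap. Zfp949 held 10.2% to 13.7% of TPM in the hypoxia libraries and 14.5% to 16.3% in the normal-pressure libraries, also with no overlap. What these differences do to the levels of low genes was not tested. Protein-coding genes other than Zfp949, the most abundant single feature, held 42.2% to 44.1% of TPM in the hypoxia libraries and 37.3% to 45.7% in the normal-pressure libraries, with the 37.3% in normal-pressure replicate 2. That library stood apart, and results that turn on it are given without it. Each library came from whole ovary tissue, so fewer cells of a type and less RNA per cell cannot be told apart.

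Cyp26a1, which encodes a retinoic acid hydroxylase, was the member that differed most between the groups. Its hypoxia mean was 0.221 of its normal-pressure mean. The related enzyme gene Cyp26b1 did not pass, and Cyp26a1 lay below it in every hypoxia library and above it in every normal-pressure library. Aldh1a2, a retinal dehydrogenase gene, was the other member that passed the test, and fell by 0.32 on the log2 scale. The most abundant member by far, Aldh1a1, did not pass. Of the 8 members tested with limma, 2 fell, none rose and 6 did not pass. These calls stand beside 18.3% of all 17120 tested features called in either direction, 11.1% higher and 7.20% lower, so the number of members called is near the background. By unadjusted p under 0.05 there were 3 higher members and 3 lower ones. The groups did not overlap for 6 of the 8 tested members, 4 lower and 2 higher under hypoxia, against 39.2% of all tested features (27.6% higher and 11.6% lower). The median log2 fold change was -0.02 over the tested members and 0.08 over all tested features. Of all called features 60.7% were higher, a share that was 46.0% with median-ratio scaling. It was 46.4% when normal-pressure replicate 2 was left out, and 72.0% when replicate 3 of that group was. The median over all tested features was 0.0031 with that scaling, and 0.0013 and 0.13 with each of those libraries left out in turn.

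**Figure D1:**
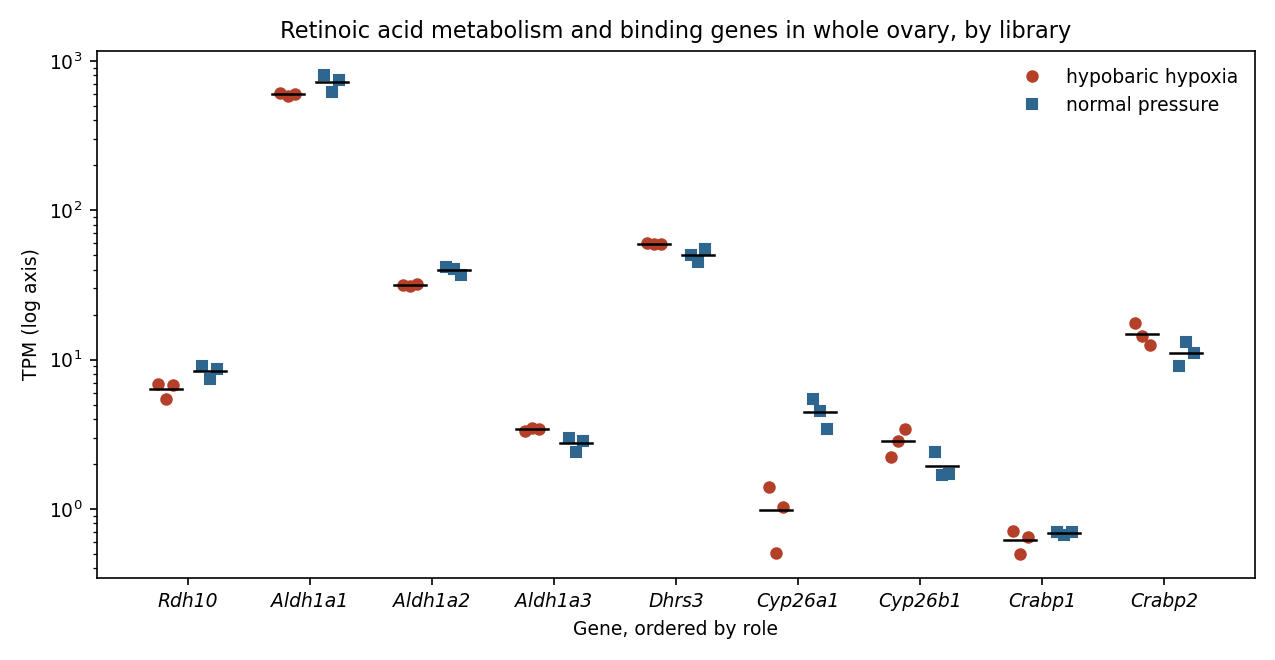
Level of each of the 9 genes in every library, in TPM on a log axis, with hypobaric hypoxia (circles) left of normal pressure (squares) and a line at each group mean (3 libraries each). Aldh1a1 lies above all others, and Cyp26a1 shows the widest gap between groups, at 0.51 to 1.41 TPM under hypoxia and 3.42 to 5.45 TPM at normal pressure.

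The levels spanned a wide range. Under hypoxia the order of the group means was Aldh1a1, Dhrs3, Aldh1a2, Crabp2, Rdh10, Aldh1a3, Cyp26b1, Cyp26a1 and Crabp1. Neighbours in that order did not overlap in range except Aldh1a3 with Cyp26b1 and Cyp26a1 with Crabp1. At normal pressure Cyp26a1 stood higher in the order, between Rdh10 and Aldh1a3 and overlapping neither, and the only neighbours whose ranges met were Crabp2 and Rdh10.

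Synthesis starts with Rdh10 (GRCm38.p6 chromosome 1, 16105882 to 16132550), the retinol dehydrogenase that makes retinal in the mouse embryo. Rdh10 measured 6.90, 5.47 and 6.71 TPM in the hypoxia libraries and 9.09, 7.40 and 8.66 TPM in the normal-pressure libraries. Every hypoxia library was below every normal-pressure library. The log2 fold change on log2(TPM + 1) was -0.35 (SE 0.13), and limma's Benjamini-Hochberg adjusted p of 0.0646 did not pass 0.05. Leaving out normal-pressure replicate 2 gave a change of -0.43 that passed (adjusted p = 0.0313). It passed in 7 of 15 alternatives, the 3 other scalings among them, with adjusted p between 0.00652 and 0.311.

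The 3 Aldh1a genes encode retinal dehydrogenases, which carry out the irreversible step. Aldh1a1 (chromosome 19, 20492583 to 20643463) measured 612, 578 and 601 TPM under hypoxia, against 807, 616 and 747 TPM at normal pressure. The groups stood side by side with a narrow gap, since normal-pressure replicate 2 lay close to the hypoxia libraries. Its means were 597 ± 17.4 TPM under hypoxia and 723 ± 97.7 TPM at normal pressure (SD, n = 3 each), and the log2 fold change of -0.27 (SE 0.13) did not pass (limma adjusted p = 0.177). Leaving out normal-pressure replicate 2, it was -0.38 with an adjusted p of 0.0158, and with median-ratio, quantile or protein-coding total scaling the adjusted p was 0.00622, 0.0299 and 0.0136, within a range of 0.00622 to 0.502. Aldh1a1 shares 6.06% of the 50-base windows of its annotated coding transcripts with its near copy Aldh1a7, so the division of reads between them is uncertain there. Aldh1a7 itself averaged 4.25 ± 0.82 TPM under hypoxia and 4.33 ± 0.719 TPM at normal pressure (SD, n = 3 each).

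Aldh1a2 (chromosome 9, 71215789 to 71296243), the main retinoic acid source of the early mouse embryo, measured 31.5, 30.9 and 32.1 TPM under hypoxia. In the normal-pressure libraries it measured 41.7, 40.7 and 36.6 TPM. The 3 hypoxia libraries were nearly equal and all lay below the lowest normal-pressure value. Aldh1a2 fell by 0.32 on the log2 scale (SE 0.10, limma adjusted p = 0.0428). The call sat close to the threshold and was lost without hypoxia replicate 1, 2 or 3 (adjusted p = 0.165, 0.191 and 0.118), without replicate 1 of the normal-pressure group (0.18) and with no filter on low values (0.0652), within a range of 0.0206 to 0.191.

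Aldh1a3 (chromosome 7, 66390892 to 66427477) measured 3.33, 3.48 and 3.43 TPM under hypoxia and 2.99, 2.42 and 2.86 TPM at normal pressure. It was the one Aldh1a gene whose hypoxia libraries were all above the normal-pressure libraries, but the log2 fold change of 0.24 (SE 0.13) did not pass (limma adjusted p = 0.214), nor did it under any of the 14 alternatives that tested it. Aldh1a1 made up 94.4% to 94.6% of their summed TPM under hypoxia and at least 93.5% at normal pressure. The share of Aldh1a2 was 4.86% to 5.05% under hypoxia and 4.65% to 6.17% at normal pressure, so the groups overlapped. The share of Aldh1a3 was small and separated the groups, at 0.515% to 0.568% under hypoxia and 0.351% to 0.367% at normal pressure. These shares do not depend on how a library was scaled, and they are given as a description with no test.

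Dhrs3 (chromosome 4, 144892534 to 144928209) works against Rdh10, since its product reduces retinal back to retinol, and retinoic acid is known to induce it. Dhrs3 measured 60.3, 59.2 and 59.0 TPM under hypoxia. At normal pressure it measured 49.7, 45.2 and 54.9 TPM. All hypoxia libraries were above all normal-pressure libraries, yet the log2 fold change of 0.25 (SE 0.11) did not pass (limma adjusted p = 0.117). With median-ratio, quantile or protein-coding total scaling the adjusted p was 0.0315, 0.00959 and 0.0071, within a range of 0.0071 to 0.339. The ratio of Dhrs3 to Rdh10 within a library was 8.74, 10.8 and 8.79 under hypoxia and 5.47, 6.10 and 6.34 at normal pressure, with no overlap.

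Of the 2 breakdown genes 1 passed the test. Cyp26a1 (chromosome 19, 37697738 to 37701536) measured 1.41, 0.51 and 1.03 TPM under hypoxia and 5.45, 4.49 and 3.42 TPM at normal pressure. The highest hypoxia value was below the lowest normal-pressure value by more than either group's SD. Means were 0.983 ± 0.452 TPM under hypoxia and 4.45 ± 1.02 TPM at normal pressure (SD, n = 3 each). Cyp26a1 fell by 1.47 on the log2(TPM + 1) scale (SE 0.18, limma adjusted p = 5.32e-05), and by 2.14 with a pseudocount of 0.1. The filter on low values asked for 1 TPM in 3 libraries. All normal-pressure libraries and hypoxia replicates 1 and 3 were above 1 TPM, so the hypoxia libraries alone would not have met it. Cyp26a1 stayed tested when any 1 library was left out. Without any filter its adjusted p was 0.0251, the highest of the 14 alternatives that tested it. Cyp26a1 was called in all 14, with changes between -2.14 and -1.28, the smallest without hypoxia replicate 2.

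Cyp26b1 (chromosome 6, 84571414 to 84593908), the hydroxylase that keeps retinoic acid from germ cells of the fetal mouse testis, measured 2.22, 2.86 and 3.42 TPM under hypoxia. At normal pressure it measured 2.39, 1.68 and 1.71 TPM. The groups overlapped, since hypoxia replicate 1 lay below normal-pressure replicate 1. The log2 fold change of 0.39 (SE 0.15) did not pass (limma adjusted p = 0.0913). It passed without hypoxia replicate 1 (adjusted p = 0.0387) and without normal-pressure replicate 1 (0.0296), within a range of 0.0267 to 0.31.

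Set side by side, the TPM of Cyp26a1 was below that of Cyp26b1 in all 3 hypoxia libraries and above it in all 3 normal-pressure libraries. The ratio of Cyp26a1 to Cyp26b1 was 0.635, 0.178 and 0.301 under hypoxia and 2.28, 2.67 and 2.00 at normal pressure. The sum of both genes was 3.63, 3.37 and 4.45 TPM under hypoxia, against 7.84, 6.17 and 5.13 TPM at normal pressure, so the groups did not overlap in the sum either. The third family member, Cyp26c1, lies 4417 bases from Cyp26a1 on the same chromosome and was at 0 to 0.05 TPM under hypoxia and 0.06 to 0.13 TPM at normal pressure, below the filter.

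**Figure D2:**
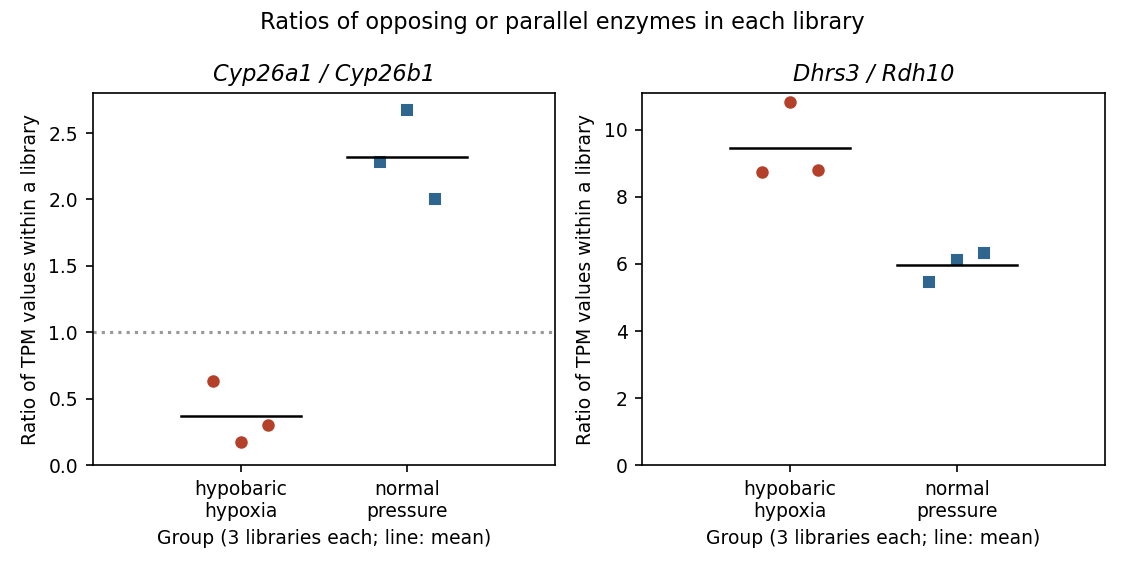
Ratio of TPM values within each library for Cyp26a1 over Cyp26b1 (left, with a dotted line at 1) and Dhrs3 over Rdh10 (right), hypobaric hypoxia left of normal pressure, with a line at the group mean. The first ratio is at or below 0.635 under hypoxia and at or above 2.00 at normal pressure, and the second is at or above 8.74 under hypoxia and at or below 6.34 at normal pressure.

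The proximal promoter of Cyp26a1 is shown because it carries the textbook retinoic acid response element, in which a pair of receptor motifs in one direction is spaced by 5 bases (the DR5 form). The window runs from 250 bases before to 50 bases after a start site in RefSeq (GRCm38.p6), on the plus strand at chr19:37697558-37697857. The window of Rarb, the retinoic acid receptor gene that is the classic DR5 target, is given beside it (minus strand, chr14:16575427-16575726). Capitals mark the element in each.
Cyp26a1 promoter: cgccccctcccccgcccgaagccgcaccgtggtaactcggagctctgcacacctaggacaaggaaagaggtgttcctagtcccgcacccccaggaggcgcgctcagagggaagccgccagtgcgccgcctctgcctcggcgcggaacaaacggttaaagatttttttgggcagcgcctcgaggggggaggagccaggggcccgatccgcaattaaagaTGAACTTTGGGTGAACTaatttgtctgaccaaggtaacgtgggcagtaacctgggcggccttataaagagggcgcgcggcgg
Rarb promoter: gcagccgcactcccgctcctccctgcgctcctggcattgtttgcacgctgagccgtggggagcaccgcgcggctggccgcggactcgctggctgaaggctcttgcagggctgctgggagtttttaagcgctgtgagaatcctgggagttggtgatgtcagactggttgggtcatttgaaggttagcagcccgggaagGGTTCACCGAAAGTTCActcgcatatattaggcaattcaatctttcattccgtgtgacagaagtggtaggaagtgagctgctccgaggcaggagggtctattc
Read in the direction of the motifs, which are in capitals, the elements are as follows.
Cyp26a1 element: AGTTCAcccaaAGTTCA
Rarb element: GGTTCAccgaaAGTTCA
They are alike at 15 of 17 positions. Counted from the start site of its window, the Cyp26a1 element lies at -32 to -16, on the strand opposite to the gene. The Rarb element lies at -53 to -37, on the strand of the gene. The Cyp26a1 gene start given above, 37697738, lies inside the window and before the element. The Rarb window lies inside the Rarb gene (16430839 to 17082331), so neither start site used is the outer end of its gene.

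Each motif of a pair was searched with the letters AGGTCA, or the variant AGTTCA, or the variant GGGTCA, or the variant GGTTCA, on both strands, with a spacer of 5, 2 or 1 bases. The DR5 form was found in 0.0974% of 32851 windows, and Cyp26a1 was the only one of the 6 members with a window that held it. None of the 9 member windows held the forms with spacers of 2 (0.268% of windows) or 1 (0.222%). Of the core of the hypoxia response element, ACGTG was found in the windows of Cyp26a1 and Aldh1a2 (19.6% of all windows), and GCGTG in those of Aldh1a2 and Crabp1 (32.4%). A match in these letters is a description and not a bound site.

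Rarb did not share the call of Cyp26a1. It measured 65.1, 67.9 and 64.3 TPM under hypoxia and 65.0, 39.3 and 52.2 TPM at normal pressure. The groups overlapped, because normal-pressure replicate 1 was as high as the hypoxia libraries, and the log2 fold change of 0.36 (SE 0.14) did not pass (limma adjusted p = 0.0981). Leaving out normal-pressure replicate 1, it was 0.53 and passed (adjusted p = 0.00487), within a range of 0.00487 to 0.291. Leaving out normal-pressure replicate 2, the lowest library, it was 0.17 and did not pass (adjusted p = 0.228). The test of the difference between the changes of both genes was not run. Counted after these promoters were read, 31 genes had a DR5 match in a window. Of the 6 tested, 2 fell, Cyp26a1 and Gm40135, none rose and 4 did not pass, beside 7.20% of all tested features called lower and 11.1% higher. Cyp26a1 is the gene whose promoter prompted the count, so its fall adds nothing here.

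Binding proteins carry retinoic acid in the cell. CRABP2 is known to deliver it to the nuclear receptor, and CRABP1 is linked to its retention and breakdown. Crabp2 (chromosome 3, 87948693 to 87953372) measured 17.5, 14.5 and 12.4 TPM under hypoxia and 9.09, 13.1 and 11.1 TPM at normal pressure. Hypoxia replicate 3 lay below normal-pressure replicate 2, so the groups overlapped. The log2 fold change of 0.39 (SE 0.14) did not pass (limma adjusted p = 0.073). It passed without hypoxia replicate 3 (adjusted p = 0.0135), within a range of 0.0106 to 0.308.

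Crabp1 (chromosome 9, 54764748 to 54773110) was below the filter and was not tested. It measured 0.71, 0.50 and 0.65 TPM under hypoxia and 0.70, 0.67 and 0.70 TPM at normal pressure, with overlapping groups. Crabp2 exceeded Crabp1 in every library, by a factor of 19.1 to 28.9 under hypoxia and 13.0 to 19.6 at normal pressure.

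**Figure D3:**
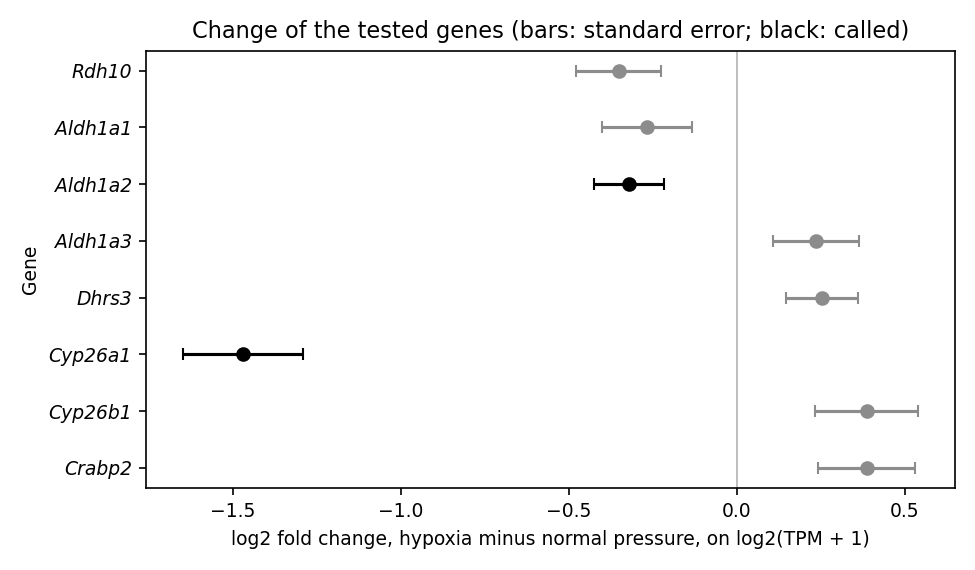
Change between hypobaric hypoxia and normal pressure as a log2 fold change of TPM + 1, bars giving limma's standard error, for the 8 tested genes (black: adjusted p under 0.05, grey: not). Cyp26a1 at -1.47 stands apart, and the others lie between -0.35 and 0.39.

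Of 13 other tested enzyme genes that handle retinol or retinal, 4 fell, none rose and 9 did not pass limma's test. By unadjusted p under 0.05, 0 were higher and the lower ones numbered 4 (median log2 fold change -0.10). Of the 4 called, Adh7 reached the filter through the normal-pressure libraries alone. The counts of this and the later lists stand beside 11.1% of all tested features called higher and 7.20% called lower. Adh1, a cytosolic alcohol dehydrogenase that oxidises retinol in the mouse, measured 30.9, 24.5 and 32.5 TPM under hypoxia, against 145, 130 and 126 TPM at normal pressure. Adh1 fell by 2.16 on the log2 scale (SE 0.12, limma adjusted p = 5.07e-08), and it was called in all 15 alternatives. The groups were far apart.

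Adh7, a retinol-active alcohol dehydrogenase gene of epithelia, measured 0.20, 0.25 and 0.30 TPM under hypoxia and 2.44, 2.27 and 1.91 TPM at normal pressure, and fell by 1.36 (SE 0.14, limma adjusted p = 1.41e-05). It reached the filter through the normal-pressure libraries alone, so it had to differ, and it went untested when any 1 of them was left out. With no filter the adjusted p was 0.00825, the highest of the 11 alternatives that tested it, which began at 4.37e-18. Adh7 (138198064 to 138232042) and Adh1 (138277585 to 138290698) are neighbours in a cluster of alcohol dehydrogenase genes on chromosome 3, 45542 bases apart. Adh5, in the same cluster and with a formaldehyde-related substrate, measured 63.2 to 63.9 TPM under hypoxia and 57.1 to 65.0 TPM at normal pressure, and did not pass (limma adjusted p = 0.739). Adh4, also there, was at 0 to 0.08 TPM.

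Dhrs7, a short-chain dehydrogenase gene, measured 36.6 ± 1.85 TPM under hypoxia and 54.7 ± 5.20 TPM at normal pressure (SD, n = 3 each) and fell by 0.57 (limma adjusted p = 0.00217). Dhrs9, a retinol dehydrogenase gene of epithelia, measured 3.06, 1.60 and 2.60 TPM under hypoxia, against 4.28, 4.11 and 5.56 TPM at normal pressure, and fell by 0.74 (limma adjusted p = 0.0055, and 0.0932 with no filter, within a range of 9.18e-07 to 0.0932).

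Uptake and storage genes gave 2 falls, no rise and 7 without a call among 9 tested (by unadjusted p under 0.05, 0 higher and 4 lower, with a median of -0.22). Scarb1, a scavenger receptor that takes up lipoprotein cholesterol and also carotenoids, measured 134, 96.5 and 181 TPM under hypoxia and 406, 282 and 397 TPM at normal pressure, and fell by 1.42 (limma adjusted p = 0.000109). Rbp4, the blood carrier of retinol, measured 4.35 to 6.25 TPM under hypoxia and 6.37 to 9.47 TPM at normal pressure, with no overlap, and fell by 0.54 (limma adjusted p = 0.023). Rbp4 was lost without normal-pressure replicate 1 (adjusted p = 0.0739) or 2 (0.0799) and with no filter (0.151), within a range of 0.000296 to 0.151.

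Stra6, the receptor that brings retinol into cells, measured 10.3, 10.3 and 10.4 TPM under hypoxia and 12.8, 10.1 and 13.9 TPM at normal pressure, and did not pass (limma adjusted p = 0.236). Leaving out normal-pressure replicate 2, Stra6 passed (adjusted p = 0.0152, within a range of 0.00603 to 0.502). The falls on the list numbered 5 under each of the 3 other scalings, 4 when normal-pressure replicate 2 was left out and 1 when replicate 1 of that group was.

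Among the nuclear retinoid receptors and the fatty acid partner pathway, 3 of 7 tested genes rose, none fell and 4 did not pass (by unadjusted p under 0.05, 4 higher and 0 lower, with a median of 0.32). Fabp5, which carries retinoic acid to the receptor PPARD, measured 71.0, 76.2 and 70.4 TPM under hypoxia and 49.9, 45.2 and 48.3 TPM at normal pressure. Fabp5 rose by 0.59 (SE 0.10, limma adjusted p = 0.00108), was called in all 15 alternatives, and its groups were far apart.

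Rarg, a retinoic acid receptor gene, measured 21.8, 21.3 and 20.4 TPM under hypoxia and 17.6, 16.1 and 16.6 TPM at normal pressure, and rose by 0.32 (limma adjusted p = 0.0439). Rxra, the common dimer partner, measured 34.5, 33.9 and 33.2 TPM under hypoxia and 28.4, 24.0 and 27.1 TPM at normal pressure, and rose by 0.35 (limma adjusted p = 0.0336). Both calls were lost without hypoxia replicate 1, 2 or 3 (Rarg 0.216, 0.177 and 0.111, Rxra 0.144, 0.129 and 0.0879), and Rarg also without normal-pressure replicate 1 (0.0872) or 3 (0.0746), and with no filter (0.0614 for Rarg and 0.067 for Rxra), within ranges of 0.0143 to 0.216 for Rarg and 0.00351 to 0.144 for Rxra. The list then counted 1 rise without any 1 hypoxia library.

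Rara, at 24.4 ± 0.108 TPM under hypoxia and 23.7 ± 2.34 TPM at normal pressure, and Rxrb, at 30.1 ± 1.72 TPM under hypoxia and 25.7 ± 2.06 TPM at normal pressure (SD, n = 3 each), did not pass (limma adjusted p = 0.795 and 0.175). Rxrg was below the filter at 0.03 to 0.16 TPM under hypoxia and 0.10 to 0.19 TPM at normal pressure.

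Genes known to respond to retinoic acid moved in both directions. Of 13 tested outside the members, 2 rose, 2 fell and 9 did not pass (median 0.08). Some of these genes, Rarb, Stra6 and Nrip1 among them, also stand on another list. Rarres2, which encodes the chemoattractant chemerin, measured 204, 236 and 217 TPM under hypoxia and 145, 128 and 154 TPM at normal pressure, and rose by 0.62 (limma adjusted p = 0.0017). Rec8, a meiotic cohesin gene, measured 2.15, 1.43 and 2.26 TPM under hypoxia, against 3.67, 3.26 and 3.66 TPM at normal pressure, and fell by 0.63 (limma adjusted p = 0.00617, and 0.0718 with no filter, within a range of 6.8e-05 to 0.0718). Tshz1 rose by 0.47 (limma adjusted p = 0.00683), and the homeobox gene Hoxa5 fell by 0.54 (limma adjusted p = 0.0127, and 0.0833 with no filter, within a range of 0.000918 to 0.0833). The falls numbered 5 under each of the 3 other scalings and 4 when normal-pressure replicate 2 was left out, and the rises 4 when replicate 1 of that group was. Of the 18 genes on this list 15 had values, and Stra8 was among those without a value that could be used.

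**Figure D4:**
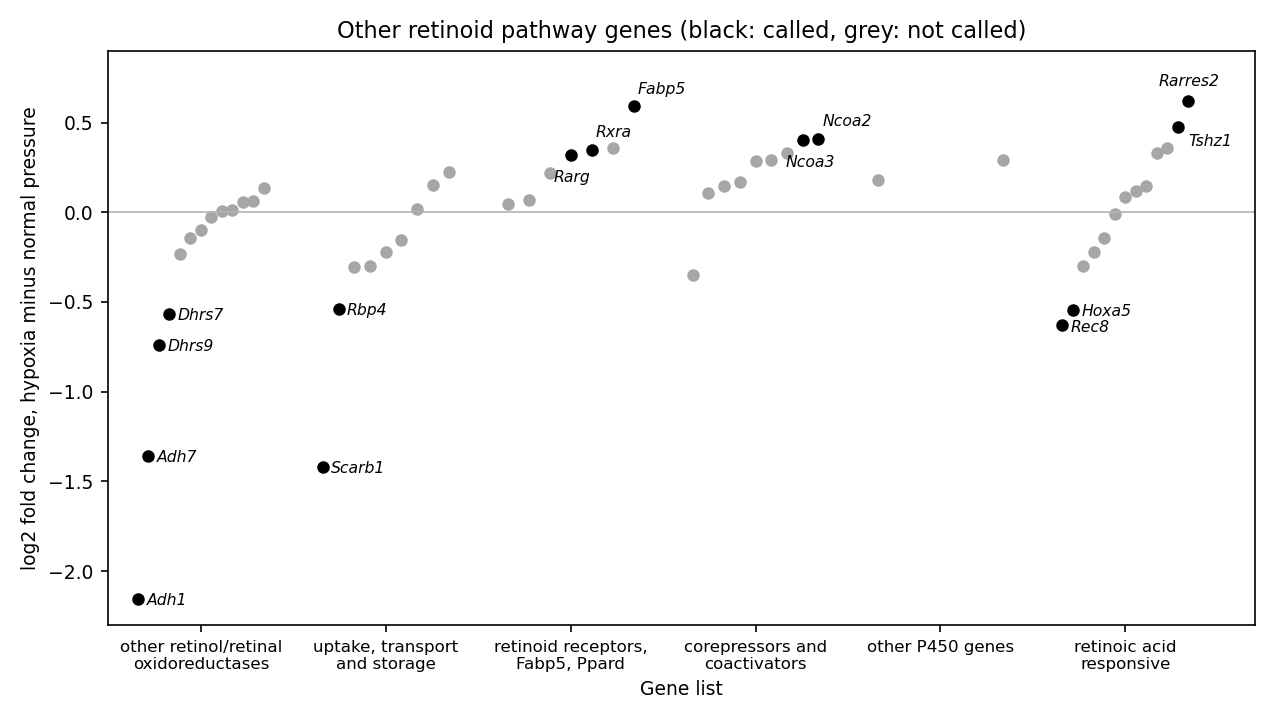
Change between hypobaric hypoxia and normal pressure, as a log2 fold change of TPM + 1, of the tested genes of 6 lists around the retinoid pathway, 1 point a gene, with called genes in black and named. Adh1 at -2.16 is lowest, and Rarres2 at 0.62 and Fabp5 at 0.59 are highest.

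Markers of several cell types also differed between the groups, in both directions, and their part in the results was not tested. Of 14 tested luteal markers 11 fell and none rose, with a summed level of 2152 to 2780 TPM under hypoxia and 5120 to 7830 TPM at normal pressure. All 8 tested fat markers fell (summed level 125 to 264 TPM under hypoxia and 316 to 412 TPM at normal pressure), although 1 fell without normal-pressure replicate 2. Of 10 tested oviduct epithelium markers 2 fell and 8 did not pass (277 to 509 TPM under hypoxia and 565 to 832 TPM at normal pressure). Most of that sum was Ovgp1, a secreted oviduct glycoprotein gene that was among the falls. Ovgp1 measured 354, 174 and 353 TPM under hypoxia and 676, 440 and 639 TPM at normal pressure. Of 12 surface epithelium markers 3 fell and 1 rose (293 to 353 TPM under hypoxia and 326 to 396 TPM at normal pressure), and the falls numbered 0 without hypoxia replicate 2, 5 without hypoxia replicate 3 and 1 without normal-pressure replicate 3. The rise on that list was lost without hypoxia replicate 2 or 3 or normal-pressure replicate 2 or 3, and the rises numbered 2 when replicate 1 of either group was left out. Of 8 smooth muscle and pericyte markers 3 fell and 1 rose (525 to 607 TPM under hypoxia and 681 to 738 TPM at normal pressure), and the rise held only when normal-pressure replicate 3 was the library left out. Of 12 stroma and fibroblast markers 5 fell and 3 rose (807 to 905 TPM under hypoxia and 1001 to 1158 TPM at normal pressure).

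The granulosa list of 16 had 5 rises and 3 falls (2924 to 3239 TPM under hypoxia and 2468 to 2676 TPM at normal pressure), and the falls numbered 1 without hypoxia replicate 2 or normal-pressure replicate 1, and 5 when replicate 2 of the normal-pressure group was left out. The rises on that list numbered 3 without hypoxia replicate 1 or 2 or normal-pressure replicate 1. Of 9 theca and interstitial markers 4 rose and 2 fell (369 to 422 TPM under hypoxia and 431 to 610 TPM at normal pressure). The falls were Mgarp and Lhcgr, and Lhcgr also stands on the luteal list. All 12 tested oocyte markers rose (224 to 276 TPM under hypoxia and 137 to 174 TPM at normal pressure), as did all 5 tested erythroid markers (1663 to 2240 TPM under hypoxia and 247 to 447 TPM at normal pressure). Of 9 endothelial markers 2 rose and none fell (171 to 175 TPM under hypoxia and 137 to 169 TPM at normal pressure), and of 8 macrophage markers 1 rose and 1 fell (295 to 313 TPM under hypoxia and 244 to 307 TPM at normal pressure). The endothelial rises numbered 1 without hypoxia replicate 1, 2 or 3 or normal-pressure replicate 1. The macrophage rise was lost without hypoxia replicate 1 or 3 or normal-pressure replicate 1, and the macrophage falls numbered 2 without normal-pressure replicate 2 and 0 without any other single library. No marker with values was at 0 in all 6 libraries, and the defining markers of each list were present.

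The protein-coding genes whose log2(TPM + 1) followed the called members most closely over the 6 libraries were picked from 10655 with a mean of at least 5 TPM. For Cyp26a1 they were Mro (Pearson's r = 0.994), the lactate exporter gene Slc16a3 (0.994) and Ppp2r2c (0.993). For Aldh1a2 they were the water channel gene Aqp5 (0.981), Mro (0.980) and the smooth muscle actin gene Actg2 (0.976). Mro measured 16.0, 14.0 and 15.3 TPM under hypoxia and 23.5, 21.4 and 19.5 TPM at normal pressure, with no overlap. These points fall into the 2 study groups and share their libraries and scaling, so r is a description. An r above 0.95 was reached by 77 genes for Cyp26a1 and 16 for Aldh1a2. Aldh1a2 itself is among the 16, whereas Cyp26a1, with a mean below 5 TPM, is not among the 77.

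**Figure D5:**
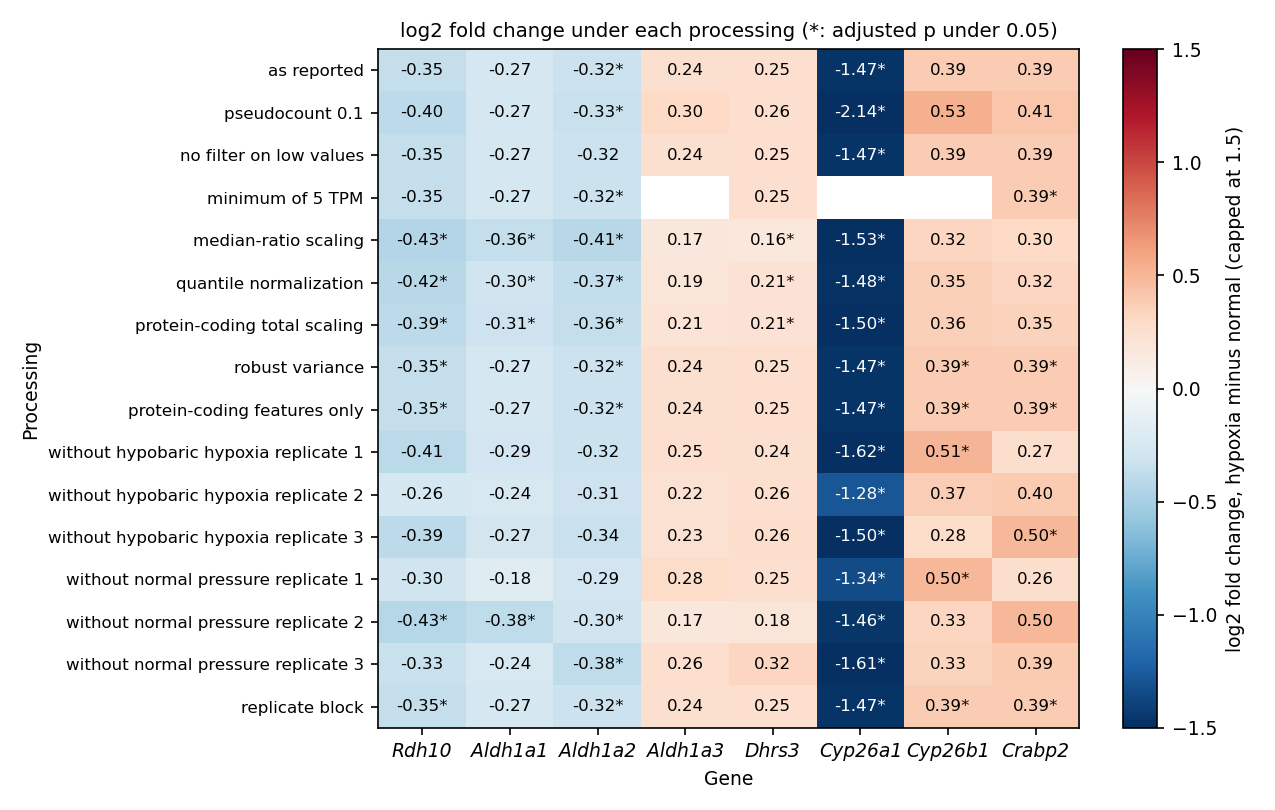
Log2 fold change (hypobaric hypoxia minus normal pressure) of the 8 tested genes as reported and under each of 15 alternatives, coloured up to 1.5 either way, with a star where the adjusted p was under 0.05 and a blank where the gene was not tested. Cyp26a1 carries a star wherever it was tested, Aldh1a3 nowhere, and every gene keeps its sign throughout.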

How the data were processed

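The authors deposited TPM values in a single table, 1 column to a library, per the file headers. Messenger RNAs share one total there with long noncoding and other RNAs. HISAT2, Bowtie2, DESeq2 and the build GRCm38.p6 are named, without roles, per the submitters' processing notes. The read counter was not given in the sources used here, nor were the annotation and filters. Per the labels' protocols, libraries came from a SMARTer mRNA kit. TPM keeps no read depth, so no counting interval is given, and the 3 libraries per group set the precision. Low values such as those of Cyp26a1 may rest on few reads.

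From the deposited TPM values, limma 3.58.1 (R 4.3.3) was fitted with a mean-variance trend to log2(TPM + 1) of features with at least 1 TPM in at least 3 libraries, hypobaric hypoxia minus normal pressure, two-sided, with Benjamini-Hochberg adjustment over all 17120 features and calls at 0.05. Each feature's variance was drawn towards that trend, so a p-value rests on spread pooled over features as well as on its own libraries. The limma adjusted p of Cyp26a1 ran from 9.09e-24 to 0.0251 over the 14 alternatives that tested it. The pseudocount of 1 understates changes of low genes. The fit was tested on simulated data. Group and replicate came from the titles. Gene types, coordinates and promoter sequences are RefSeq's for GRCm38.p6, the authors' build, and 6 of the 9 members had a promoter window. Transcript windows are from GENCODE M21. Ratios between genes are descriptions. All members were named. The naming rule covered called genes of the 6 pathway lists and, whatever their call, the receptors and a few others such as Stra6 and Rbp4, and the 3 most similar genes for each called member. Another gene covered by this rule is not reported here. The members, lists and tests were chosen with earlier results of these data known. The alternatives were another pseudocount, 2 other filters on low values, 3 scalings, robust variance, protein-coding features alone, leaving out each library and a replicate block.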

Additional observations from a re-analysis of the deposited data

How the results depend on the processing

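All 8 tested members kept their direction under every alternative that tested them. Features called numbered 3139 as reported, 1233 with no filter and 2682 with a minimum of 5 TPM. Median-ratio scaling gave 5940, quantile normalization 6171 and scaling to the protein-coding total 6276, and the count was 2065 (without hypoxia replicate 2) to 3998 (without normal-pressure replicate 2) when 1 library was left out. Members called lower were 2 as reported, 1 with no filter or a minimum of 5 TPM, 4 with any of the 3 scalings and 1 to 4 when 1 library was left out. Members called higher were 0 as reported, 1 with a minimum of 5 TPM or any of the 3 scalings, 2 with robust variance or protein-coding features alone and 0 to 1 when 1 library was left out. The cause was not tested. With a minimum of 5 TPM Cyp26a1, Cyp26b1 and Aldh1a3 were not tested, and fewer features entered.

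The labels do not say that replicate numbers pair the libraries, and deviations of same-numbered libraries from their group means correlated at -0.03, 0.11 and -0.05. With the replicate block 4117 features were called, with 3 members lower and 2 higher. TPM gives no depth, so precision at low levels, such as the 0.51 TPM of Cyp26a1 in hypoxia replicate 2, cannot be stated.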

Other observations

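Corepressors and coactivators act beside the retinoid receptors. Of 9 tested corepressor and coactivator genes 2 rose, none fell and 7 did not pass limma's test (by unadjusted p under 0.05, 5 higher and 1 lower, with a median log2 fold change of 0.29). Ncoa2 measured 61.0, 56.1 and 56.1 TPM under hypoxia and 46.3, 37.0 and 46.9 TPM at normal pressure, and rose by 0.41 on the log2 scale (limma adjusted p = 0.0218). Ncoa3 measured 27.5, 26.4 and 27.9 TPM under hypoxia and 20.9, 17.5 and 23.1 TPM at normal pressure, and rose by 0.40 (limma adjusted p = 0.0252). Ncoa2 was lost without hypoxia replicate 1 (adjusted p = 0.0915), and Ncoa3 without hypoxia replicate 1 (0.0701) or 3 (0.0664), and both with no filter (0.0853 and 0.0897), within ranges of 0.00152 to 0.0915 for Ncoa2 and 0.00258 to 0.0897 for Ncoa3. The rises on this list numbered 0 with no filter or without hypoxia replicate 1, 1 without hypoxia replicate 3, and 5 under each of the 3 other scalings. Ncoa7, a coactivator gene named after its values were seen, measured 12.0, 11.9 and 12.2 TPM under hypoxia and 16.3, 12.5 and 18.5 TPM at normal pressure, and did not pass (limma adjusted p = 0.0768). It was called lower in 8 of 15 alternatives, among them the 3 other scalings (adjusted p from 0.00406 to 0.00727) and the one without normal-pressure replicate 2 (0.00745), within a range of 0.00406 to 0.237. Neither of the 2 tested P450 genes with retinoid activity outside the CYP26 family passed limma's test as reported. Both were higher under quantile normalization (adjusted p = 0.0243 for Cyp1b1 and 0.0423 for Cyp2s1) and protein-coding total scaling (0.0359 and 0.0372), within ranges of 0.0243 to 0.611 for Cyp1b1 and 0.0372 to 0.349 for Cyp2s1. Cyp1b1, at 72.5 to 79.9 TPM under hypoxia and 60.8 to 72.0 TPM at normal pressure, was far above the summed level of Cyp26a1 and Cyp26b1 in every library.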
